A study of Homo sapiens with 16 samples.

Results

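The 40 genes described here encode enzymes that make amino acids and one-carbon units, carriers that bring amino acids into the cell, and enzymes that load amino acids onto tRNA. They were chosen by name, as 40 of the 63677 Ensembl identifiers counted. All 40 were found under the older symbols of the expression table, so WARS, GARS, AARS and the other synthetases keep those names. VARS had 6 further identifiers with a total of 0 reads, which were left out. RNA was sequenced from MiaPaCa2 and PANC1, established cell lines derived from human pancreatic ductal adenocarcinoma and grown in DMEM with serum. Each line had a control group and groups treated with 40 nmol/L gemcitabine, a nucleoside analogue that blocks DNA synthesis, with 50 µmol/L genistein, a soy isoflavone, or with both (co-treatment), each for 24 h. Every group had 2 libraries, labelled I and II, which gives 16 libraries in all. The study's methods describe I and II as biological replicates. The labels do not say how the cultures were separated, and the p-values measure the spread between these libraries.

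Cells short of amino acids, or stressed in other ways, slow protein synthesis while translating more of the transcription factor ATF4. ATF4 and its partners bind the amino acid response element in the promoters of many of these genes, including ASNS, PSAT1 and genes for several cytosolic tRNA synthetases. The same genes are known as a supply line for growing tumor cells, since serine, glycine, asparagine and folate-bound one-carbon units feed protein and nucleotide synthesis.

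The amino acid response element was searched for as TGATGNAA on both strands in the RefSeq promoters (build GRCh38.p14) of the members, each 250 bases before the transcription start and 50 bases after it. Promoters were matched for 31 of the 40 members. The letters were present for 14 of these 31 genes, against 4.46% of all 27305 genes with a promoter in the same set. Part of the members were chosen as genes driven by ATF4, so a higher share is built into the choice and is no separate result. Counted by promoter, 16 of the members' 50 windows held them, against 3.62% of 35116, and 3 of the 16 are overlapping windows of MTHFD1L. By role, they were present for 7 of the 11 matched tRNA genes (GARS, MARS, NARS, AARS, CARS, IARS and TARS), 5 of 8 transporters (SLC3A2, SLC7A1, SLC1A4, SLC1A5 and SLC38A1) and none of the 3 matched serine and glycine genes. Matched members called when genistein was given or added but without the letters were PSAT1, MTHFD2, CTH, PCK2, SLC7A5, SLC38A2 and XPOT. PSAT1 is thus named above for the element but had no match in its window. The promoters below are shown for the 3 members that held the letters and were also called when genistein was given or added. Each is written 5′ to 3′ on the strand of the gene with the matched letters in capitals. The match begins at position -68 from the start in ASNS, at -7 in SLC1A4 and at -187 in AARS, and in the last 2 it lies on the opposite strand.
ASNS, chr7:97872409-97872658, minus strand: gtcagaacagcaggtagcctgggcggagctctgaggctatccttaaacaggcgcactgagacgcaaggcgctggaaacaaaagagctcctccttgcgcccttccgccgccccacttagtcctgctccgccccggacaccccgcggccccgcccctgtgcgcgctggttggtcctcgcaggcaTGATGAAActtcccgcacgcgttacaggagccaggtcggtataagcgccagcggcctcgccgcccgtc
SLC1A4, chr2:64989149-64989399, plus strand: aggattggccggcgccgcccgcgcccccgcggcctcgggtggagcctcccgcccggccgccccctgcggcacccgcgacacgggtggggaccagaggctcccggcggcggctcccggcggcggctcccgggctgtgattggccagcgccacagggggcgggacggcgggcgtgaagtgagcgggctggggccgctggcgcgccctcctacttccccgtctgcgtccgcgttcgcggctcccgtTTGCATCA
AARS, chr16:70289507-70289756, minus strand: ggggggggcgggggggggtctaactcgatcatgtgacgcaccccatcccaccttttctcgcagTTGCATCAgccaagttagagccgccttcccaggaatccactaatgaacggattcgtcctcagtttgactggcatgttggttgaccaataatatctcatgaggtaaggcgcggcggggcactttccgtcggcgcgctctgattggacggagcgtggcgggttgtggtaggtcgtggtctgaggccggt

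Levels are given as FPKM, the fragments mapped per kilobase of transcript that the authors scaled to library size, which allow genes to be compared. Changes are log2 fold changes of the read counts from limma-voom with their standard errors (SE), and a gene was called when its Benjamini-Hochberg adjusted p was at most 0.05, its absolute log2 fold change at least 0.4 and its mean FPKM above 1 in the treated group. Reads per library ran from 12943482 to 31991860. The keratins KRT8 and KRT18 were at 369 FPKM or more in every library, the leukocyte markers PTPRC and CD3E and the endothelial marker VWF were below 0.08 FPKM, and PECAM1, PRSS1 and CPA1 were at 0. CD68, a lysosomal protein listed as a leukocyte marker, stood at 14.2 to 37.6 FPKM in MiaPaCa2 and at 108.3 to 221 in PANC1, and its part in the results was not tested. EPCAM was at 0 FPKM in all MiaPaCa2 libraries and between 7.71 and 12.8 in PANC1. CDH1, also epithelial, was at 0 to 0.021 in MiaPaCa2 and 2.70 to 13.2 in PANC1, and KRT19 at 56.5 to 204 and 282 to 749. The mesenchymal marker VIM stood at 2336 to 3875 FPKM in MiaPaCa2 and 1398 to 2734.5 in PANC1, and ZEB1 at 1.82 to 4.11 and 2.23 to 5.15. Libraries also differed in how counts followed the GC content of a gene. In MiaPaCa2, log2 CPM changed per 10 points of GC by -0.23 and -0.14 in the control libraries and by 0.14 and 0.05 in the gemcitabine libraries, relative to the mean of the line. In PANC1, control I stood at 0.29 and control II at -0.07. The exons of the members ranged from 37.6% GC (SLC38A2) to 63.9% (PYCR1), so counts after removal of each library's GC trend are given where they change the calls. How far this trend enters single results was not tested. Exons of 20 members overlap another gene in the GENCODE annotation, over at least 10% of their length in 10 members. The largest overlap was that of ASNS, 49.3% with ENSG00000284707 on the same strand. The strand setting of the counting is not given in the sources used here, so reads of an overlapping gene, such as DDIT3 opposite MARS, cannot be told apart.

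**Figure D1:**
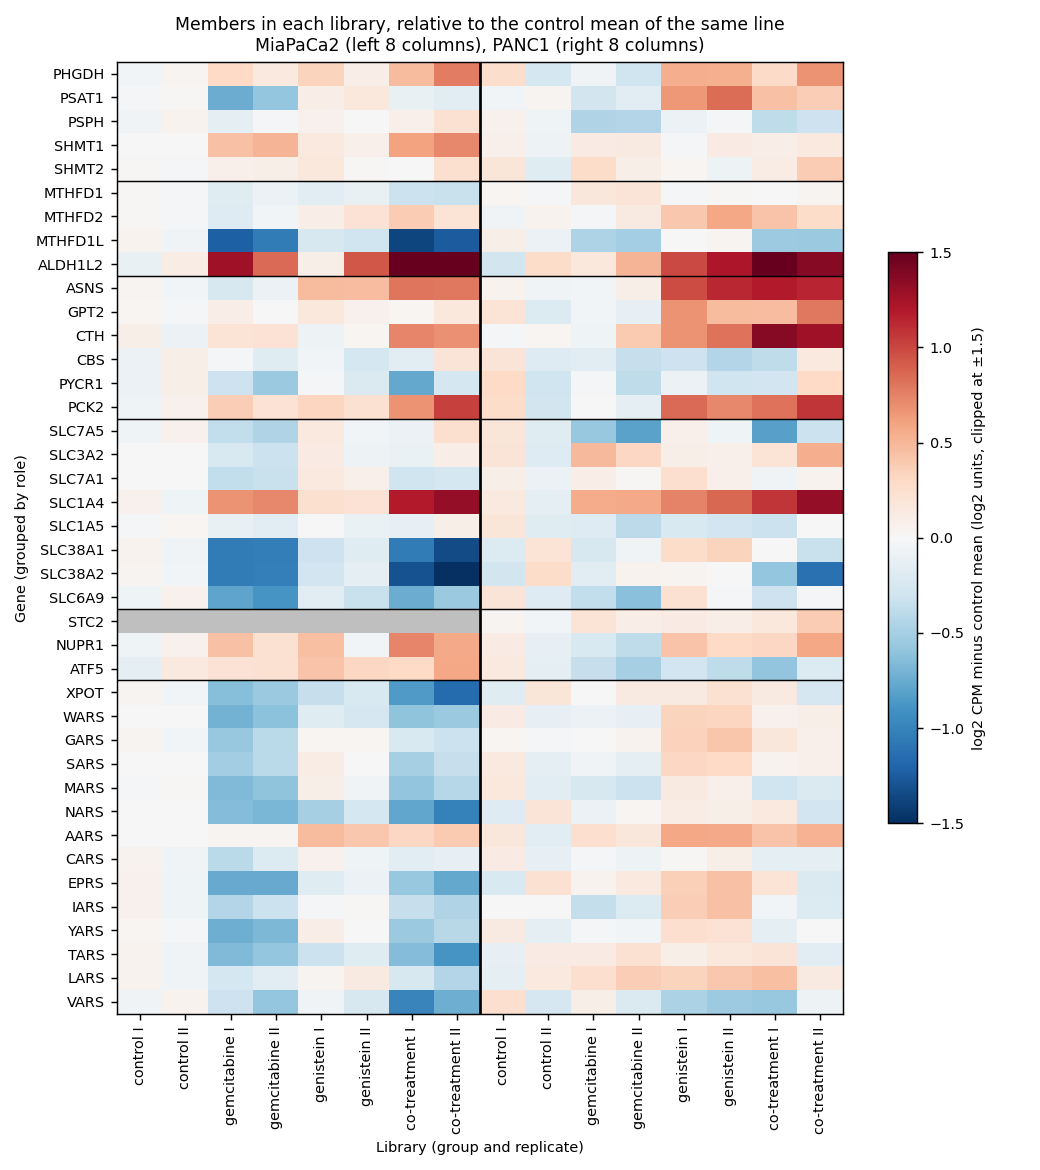
Heat map of the 40 genes (rows, grouped by role from serine synthesis at the top to tRNA charging at the bottom) in the 16 libraries (columns); color is log2 CPM minus the control mean of the same line, clipped at 1.5, and grey marks STC2 in MiaPaCa2, which had 0 to 3 reads per library. Of the 14 tRNA genes, all but AARS are blue in the MiaPaCa2 gemcitabine and co-treatment libraries. ALDH1L2, ASNS, CTH, PCK2 and SLC1A4 are red in the co-treatment libraries of both lines.

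The untreated lines were compared first. Most members were well expressed in both, with a mean above 1 FPKM for 38 members in the MiaPaCa2 controls and 39 in the PANC1 controls and a median over the 40 members of 99.8 and 91.8 FPKM. PANC1 exceeded MiaPaCa2 for 11 members, against 27.9% of all genes tested, and was lower for 13, against 24.3%, so the share of members that differed was near that of other genes. After removal of the GC trend VARS and MTHFD1 were no longer called, GARS was called higher in PANC1, and PHGDH, SLC1A5, SLC6A9, ATF5 and YARS were called lower. The size of the differences was large for a few. WARS, the tryptophanyl-tRNA synthetase on chr14:100800127-100843142 (GRCh37), was the most abundant member in MiaPaCa2 at 528 and 454 FPKM and stood at 89.9 and 85.3 FPKM in PANC1 (log2 fold change -2.51, SE 0.08, adjusted p = 2.21e-11). CARS, the cysteinyl-tRNA synthetase on chr11:3022152-3078843, had the opposite order, with 31.3 and 29.1 FPKM in MiaPaCa2 and 128 and 117 in PANC1 (1.93, SE 0.10, adjusted p = 2.24e-09). MARS, for methionine, was also higher in PANC1 (1.10, SE 0.10), whereas NARS, IARS and LARS were lower, by -0.88, -0.75 and -0.92 on the log2 scale.

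STC2, a secreted glycoprotein induced by ATF4, was nearly absent from one line. It had 1 and 3 reads in the MiaPaCa2 controls and 1769 and 2668 in the PANC1 controls, where its level was 36.6 and 33.2 FPKM. The ratio of CPM (reads scaled to library size) between the lines was 624, with an exact 95% interval of 243 to 2290 that covers counting error only. In the other 6 MiaPaCa2 libraries it had 0 or 1 read, and a count of 0 allows up to 3. NUPR1, a small stress-induced chromatin protein, stood at 1.48 and 1.52 FPKM in MiaPaCa2 and at 18.1 and 17.4 in PANC1 (log2 fold change 3.52, SE 0.26, adjusted p = 8.16e-08).

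The enzymes differed in both directions. MTHFD1L (0.71) and PSPH (0.46) were higher in PANC1, whereas MTHFD1 (-0.45), SHMT2 (-0.48) and CBS (-0.57) were lower. PANC1 also had more ASNS, the asparagine synthetase (106.04 and 103.55 FPKM in MiaPaCa2, 188 and 194 in PANC1, 0.82, SE 0.09), and more PYCR1, which makes proline (1.10, SE 0.23). It had less GPT2 (-1.02), CTH (-1.07) and PCK2 (-1.02), which make alanine, cysteine and phosphoenolpyruvate, and less SHMT1 (-1.27, SE 0.09), the cytosolic serine hydroxymethyltransferase. Both chains of the leucine exchanger were higher in PANC1, the carrier SLC7A5 (LAT1) with 86.6 and 94.5 FPKM against 218 and 193 and its heavy chain SLC3A2 with 165 and 135 against 279.6 and 256. SLC38A2, the sodium-coupled neutral amino acid carrier SNAT2, was lower in PANC1 (319 and 274 FPKM against 120.0 and 166, log2 fold change -1.16, SE 0.17, adjusted p = 4.99e-05).

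Gemcitabine lowered 11 of the 14 genes for tRNA export and charging in MiaPaCa2. All 14 had a negative log2 fold change, with a median of -0.60 over the 14 beside -0.01 over all genes tested. In all, 19 members fell and 2 rose in MiaPaCa2, against 14.6% and 14.9% of all genes. EPRS, the bifunctional glutamyl-prolyl-tRNA synthetase on chr1:220141942-220219872, went from 110.3 and 106.3 FPKM in the controls to 62.7 and 63.8 with gemcitabine (log2 fold change -0.81, SE 0.09, adjusted p = 4.49e-05). The lowest control library was above the highest gemcitabine library. YARS for tyrosine went from 154 and 144 to 99.6 and 93.3 FPKM (-0.76, SE 0.08), and WARS from 528 and 454 to 314 and 332 FPKM (-0.72, SE 0.07). NARS, MARS, TARS and XPOT, the exportin that carries tRNA out of the nucleus, fell by between 0.65 and 0.72 on the log2 scale. GARS, SARS, VARS and IARS fell by between 0.44 and 0.54. CARS and LARS had smaller negative values (-0.36 and -0.27) and were not called. AARS, for alanine, did not follow the group, with 143 and 127 FPKM in the controls, 149 and 146 with gemcitabine and a log2 fold change of -0.02 (95% interval -0.17 to 0.13). These are RNA measurements of whole cultures, so fewer cells that express a gene and less of its RNA per cell cannot be told apart.

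The carriers SLC38A1, SLC38A2 and SLC6A9 fell further. SLC38A1 (chr12:46576846-46663800), which encodes the glutamine carrier SNAT1, went from 24.9 and 24.6 FPKM to 14.3 and 14.7 (log2 fold change -1.10, SE 0.11, adjusted p = 1.68e-05). SLC38A2, on the same chromosome at chr12:46751971-46766556, went from 319 and 274 to 175 and 168 FPKM (-1.09, SE 0.11, adjusted p = 1.93e-05). SLC6A9, the glycine transporter GLYT1 (chr1:44457172-44497139), went from 9.62 and 10.3 to 6.11 and 5.59 FPKM (-0.88, SE 0.13, adjusted p = 0.000235). No gemcitabine library of these carriers reached the level of a control library. SLC7A5 (chr16:87863629-87903113) fell less, from 86.6 and 94.5 to 69.0 and 60.8 FPKM (-0.46, SE 0.10), and so did SLC7A1, the carrier of arginine and lysine (-0.40, SE 0.08). SLC1A4, the alanine, serine and cysteine carrier ASCT1 (chr2:65215611-65250999), rose from 9.22 and 7.60 to 13.9 and 12.6 FPKM (0.64, SE 0.10, adjusted p = 0.000509). SLC3A2 (-0.33, SE 0.09) and SLC1A5, the glutamine carrier ASCT2 (-0.19, SE 0.08), were not called.

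Among the enzymes, the change with gemcitabine in MiaPaCa2 rested on a few genes. MTHFD1L, the mitochondrial enzyme that releases formate from the folate cycle (chr6:151186815-151423023), had the largest fall of the 39 members tested there, from 31.8 and 29.0 to 16.4 and 17.9 FPKM (log2 fold change -1.19, SE 0.10, adjusted p = 9.31e-06). PSAT1, the phosphoserine aminotransferase (chr9:80912041-80945009), fell from 106.7 and 108.3 to 67.9 and 72.6 FPKM (-0.71, SE 0.09, adjusted p = 6.69e-05). PYCR1 fell by 0.48 and SHMT1 rose by 0.42 on the log2 scale. ALDH1L2, with a control mean of 0.27 FPKM, was not called. Its gemcitabine libraries stood 1.27 and 0.85 above the control mean in log2 CPM. ASNS stayed between 102.4 and 106.6 FPKM in both groups, with a log2 fold change of the counts of -0.22 (SE 0.08, adjusted p = 0.0562). Removing the GC trend left 20 members lower, against 12.6% of all genes, of which 16 were among the 19. XPOT, GARS and IARS were no longer called, and their exons hold 40.6%, 39.0% and 42.5% GC. CBS, SLC3A2, SLC1A5 and CARS were called instead, and SHMT1 was no longer called higher. With each of the 8 MiaPaCa2 libraries left out in turn, between 19 and 21 members were called, and the calls of SHMT1, PYCR1, SLC7A5, SLC7A1, IARS and VARS were each lost without 1 or 2 of the control or gemcitabine libraries.

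In PANC1 the same dose changed 3 members, a share near that of all genes. Gemcitabine raised 1 and lowered 2, against 4.49% and 3.03% of all genes tested. At an unadjusted p below 0.05, 5 members were higher and 7 lower, beside 4324 of all 16909 genes in either direction. Control libraries also differed more from each other here, with a chi-square per degree of freedom of 35.3, against 3.57 in MiaPaCa2. How far this limits the calls was not tested. The tRNA charging group had a median log2 fold change of 0.02 over its 14 genes. SLC1A4 rose as in MiaPaCa2, from 10.7 and 9.56 to 19.4 and 18.6 FPKM (0.62, SE 0.13, adjusted p = 0.0301). SLC7A5 fell from 218 and 193 to 161 and 135 FPKM (-0.63, SE 0.16, adjusted p = 0.0499), close to the limit of the call. MTHFD1L was called lower from the counts (-0.43, SE 0.09, adjusted p = 0.0267), yet its FPKM stood at 68.5 and 70.2 in the controls and at 65.5 and 70.2 with gemcitabine, and a fit to log2(FPKM + 1) gave -0.03 (adjusted p = 0.873). Removal of the GC trend added SLC3A2 as higher (0.51, SE 0.08). No member was called when gemcitabine I, gemcitabine II, genistein I or genistein II was left out and 1 without control I, and SLC1A4 was also not called without control II. SLC1A4, MTHFD1L and SLC7A5 were the members called in the same direction in both lines.

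**Figure D2:**
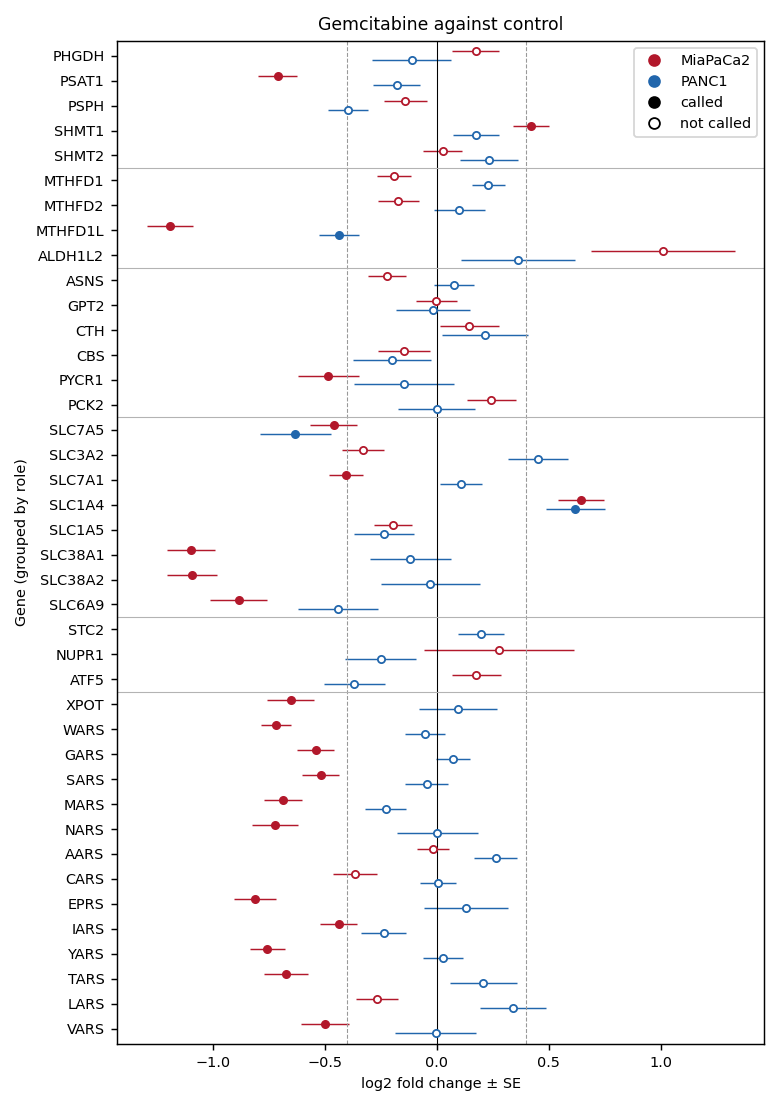
Log2 fold change of each of the 40 genes (rows, grouped by role) between gemcitabine and control, with the SE as bars, in MiaPaCa2 (red) and PANC1 (blue); filled points were called and dashed lines mark 0.4. The 14 tRNA genes at the bottom lie below 0 in MiaPaCa2, and in PANC1 they lie between -0.24 and 0.34.

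The difference between the lines was tested directly in a model of all 16 libraries, where a positive value means that the response in PANC1 was higher. The gemcitabine response differed for 13 members, all of them higher in PANC1, against 6.21% of all genes that were higher and 9.06% that were lower. All 14 tRNA genes had a positive value, with a median of 0.51 beside -0.08 over all genes. The adjusted p was at most 0.05 for 6 of them, XPOT, WARS, GARS, EPRS, YARS and TARS. EPRS had the largest difference of the group (0.85, SE 0.21, adjusted p = 0.0182). In PANC1 it stood at 69.8 and 101.6 FPKM in the controls and 89.1 and 100.5 with gemcitabine. YARS differed by 0.69 (SE 0.13, adjusted p = 0.00558) and WARS by 0.56 (SE 0.11, adjusted p = 0.00605). SLC38A2 and SLC38A1 differed by 0.97 (SE 0.25) and 0.88 (SE 0.21). After removal of the GC trend 23 members were higher in PANC1, against 12.1% of all genes, and 11 of them were among the 13. PSAT1 and GARS were no longer among them, GARS with a difference of 0.03 (SE 0.19), and ALDH1L2 was lower. Fewer members, between 3 and 7, passed without MiaPaCa2 control I, control II, gemcitabine I or gemcitabine II, or without PANC1 gemcitabine II.

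Genistein alone raised ASNS in both lines. ASNS (chr7:97480989-97501854), which makes asparagine from aspartate and glutamine and whose promoter is printed above, went from 106.04 and 103.55 FPKM to 152 and 150.3 in MiaPaCa2 (log2 fold change 0.45, SE 0.08, adjusted p = 0.00606) and from 188 and 194 to 398 and 452 in PANC1 (1.10, SE 0.09, adjusted p = 0.0264). In both lines every genistein library lay above every control library. The difference between the lines, 0.59 (SE 0.12), had an adjusted p of 0.108. In MiaPaCa2 the call was lost without control I or control II, when the highest adjusted p was 0.0811. In PANC1 it was lost without any one of the control, gemcitabine or genistein libraries, with an adjusted p of up to 0.66, while the log2 fold change stayed between 0.99 and 1.13.

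The second member that genistein raised in MiaPaCa2 was AARS (chr16:70285886-70323610), from 143 and 127 to 189 and 193 FPKM (0.42, SE 0.07, adjusted p = 0.00365). No member was called lower there by limma-voom, edgeR or DESeq2. At an unadjusted p below 0.05 by limma-voom, 8 members had a negative log2 fold change and 4 a positive one. Over all genes tested, 4391 of 16064 had such a p in either direction. The 2 raised members compare with 4.17% of all genes that rose and 4.13% that fell. AARS was not called after removal of the GC trend (0.28, SE 0.06), nor without control I or control II. MTHFD1L was called lower in the GC-corrected fit (-0.41, SE 0.08), against -0.29 (SE 0.10) without the correction.

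In PANC1, ASNS was the member called higher with genistein by limma-voom, against 0.0591% of all genes, and 0 were called lower, against 0.0% of all genes. At an unadjusted p below 0.05, 1 member was lower and 17 were higher, beside 3252 of all 16909 genes in either direction. Of the 40 members, 34 had a positive log2 fold change, with a median of 0.20 beside 0.05 over all genes. AARS went from 157 and 129 to 221 and 224 FPKM (0.62, SE 0.10, adjusted p = 0.0867), and SLC1A4 from 10.7 and 9.56 to 18.6 and 19.9 FPKM (0.85, SE 0.14, adjusted p = 0.0867). PSAT1 went from 91.7 and 100.5 to 151 and 175 FPKM (0.78, SE 0.10, adjusted p = 0.0608), and PCK2, the mitochondrial phosphoenolpyruvate carboxykinase (chr14:24563262-24579807), from 60.8 and 45.1 to 107.5 and 82.4 FPKM (0.85, SE 0.17, adjusted p = 0.111). For each of these 4 genes the adjusted p missed the threshold, so none was called. Once the GC trend was removed, 12 members were called higher, against 3.9% of all genes, and 0 lower. They were PHGDH and PSAT1 of serine synthesis, the folate enzyme ALDH1L2, ASNS, GPT2, CTH, PYCR1 and PCK2 among the other enzymes, the carriers SLC7A5, SLC1A4 and SLC6A9, and AARS. DESeq2 without that correction called 9 members and 753 of 16909 genes, and the limma-voom model of all 16 libraries called 10 members and 715 of 17863 genes. Among the 14 tRNA genes AARS alone was called in the GC-corrected fit (0.55, SE 0.05).

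**Figure D3:**
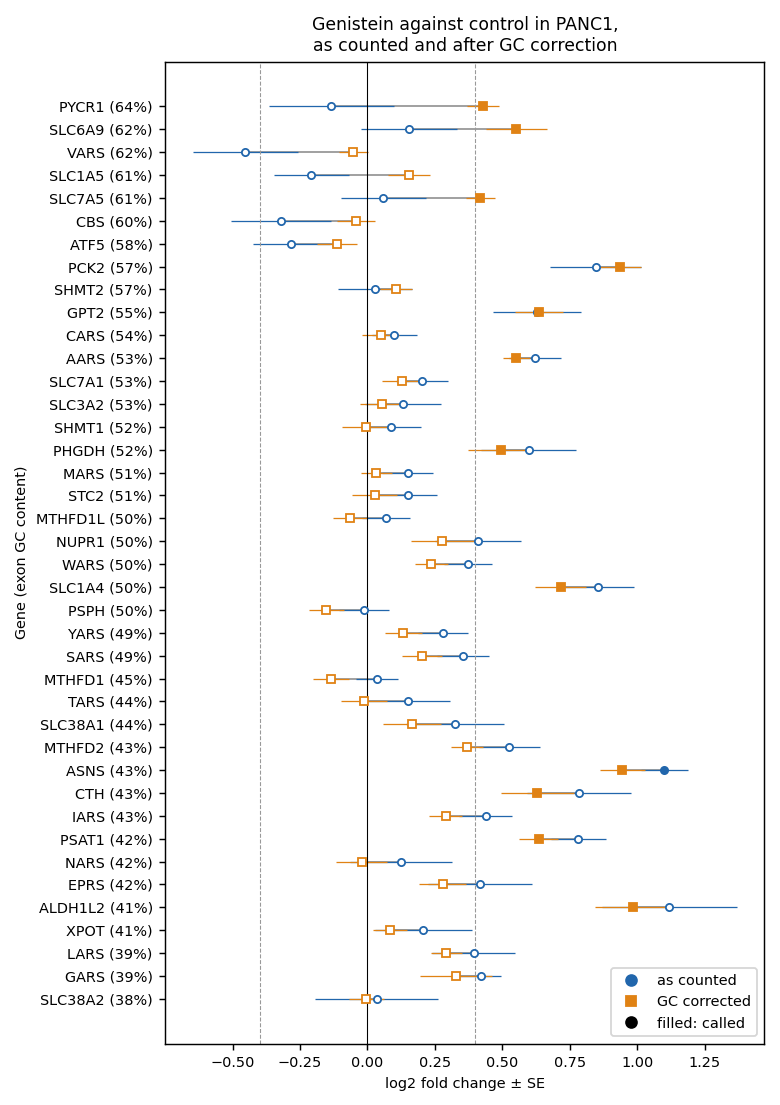
Log2 fold change of the 40 genes between genistein and control in PANC1, from the counts as deposited (blue circles) and after removal of each library's GC trend (orange squares), with SE bars; genes are ordered by exon GC content, given in brackets, and filled symbols were called. PYCR1, SLC6A9 and SLC7A5, at over 60% GC, move to higher values, PYCR1 from -0.13 to 0.43, and ASNS moves from 1.10 to 0.94.

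The genistein response did not pass the test of a difference between the lines for any member by limma-voom or edgeR, against 0.0336% of all genes. At an unadjusted p below 0.05, 16 members were higher and 1 was lower in PANC1, beside 2057 of all 17863 genes in either direction. DESeq2 called 3 members and 185 of 17863 genes. With the GC trend removed 6 members were higher in PANC1 (GPT2, PYCR1, PCK2, SLC7A5, SLC6A9 and WARS), against 0.846% of all genes. PCK2 had a difference of 0.76 (SE 0.11, adjusted p = 0.00449) in that fit and of 0.53 (SE 0.23, adjusted p = 0.414) without the correction.

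Adding genistein to gemcitabine was examined by comparing co-treatment with gemcitabine alone. In MiaPaCa2 7 members were higher, against 4.05% of all genes, and 3 were lower, against 1.83%. ASNS had the largest rise, from 106.6 and 102.4 FPKM with gemcitabine to 201 and 204 with both drugs (log2 fold change 0.96, SE 0.08, adjusted p = 0.000272). PCK2 went from 145.5 and 112.8 to 177 and 210.0 FPKM (0.55, SE 0.11, adjusted p = 0.00922), SLC1A4 from 13.9 and 12.6 to 19.6 and 21.9 FPKM (0.55, SE 0.10, adjusted p = 0.00536) and PSAT1 from 67.9 and 72.6 to 107.5 and 96.7 FPKM (0.51, SE 0.09, adjusted p = 0.00466). CTH, the last enzyme of cysteine synthesis from methionine (chr1:70876901-70905534), went from 12.3 and 11.1 to 15.0 and 16.3 FPKM (0.50, SE 0.12, adjusted p = 0.0294). MTHFD2 and SLC7A5 rose by less, 0.40 and 0.48. MTHFD2 lay at the 0.4 limit, and 4 of 11 alternative fits did not call it. With each library left out in turn its log2 fold change ran from 0.30 to 0.52. For the 5 genes given with their levels, both co-treatment libraries were above both gemcitabine libraries.

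The tRNA charging genes of MiaPaCa2 did not rise with the enzymes. Their median log2 fold change between co-treatment and gemcitabine was 0.06, and XPOT and VARS fell further, by 0.41 and 0.42. SLC38A2 also fell further, from 175 and 168 to 143.2 and 104.6 FPKM (-0.47, SE 0.12, adjusted p = 0.0285), and it and XPOT were not called after removal of the GC trend, while the 7 members called higher were the same. The number of members called dropped from 10 to 5 without control I or control II, to 1 without gemcitabine I and to 2 without gemcitabine II. ASNS stayed called without any one of the 8 libraries, at 0.88 to 1.03.

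In PANC1 co-treatment exceeded gemcitabine for ASNS, from 242 and 227 to 542 and 496 FPKM (1.12, SE 0.09, adjusted p = 0.0122), against 0.0118% of all genes. None was called lower, against 0.00591%, by limma-voom, edgeR or DESeq2. At an unadjusted p below 0.05 there were 11 higher and 2 lower, beside 2262 of all 16909 genes in either direction. The call of ASNS was lost without either co-treatment, gemcitabine or genistein library, at log2 fold changes of 1.04 to 1.18. CTH went from 4.73 and 6.43 to 13.0 and 12.5 FPKM (1.12, SE 0.18, adjusted p = 0.111), ALDH1L2 from 1.06 and 1.495 to 3.23 and 2.41 FPKM (1.14, SE 0.24, adjusted p = 0.132) and PCK2 from 57.0 and 53.2 to 109.4 and 123.9 FPKM (0.99, SE 0.17, adjusted p = 0.116). None of these 3 genes was called. After removal of the GC trend 9 members were higher, against 4.04% of all genes, and SLC38A2 was lower. In that fit PSAT1, ASNS, CTH, PCK2 and SLC1A4 were called higher in both lines.

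**Figure D4:**
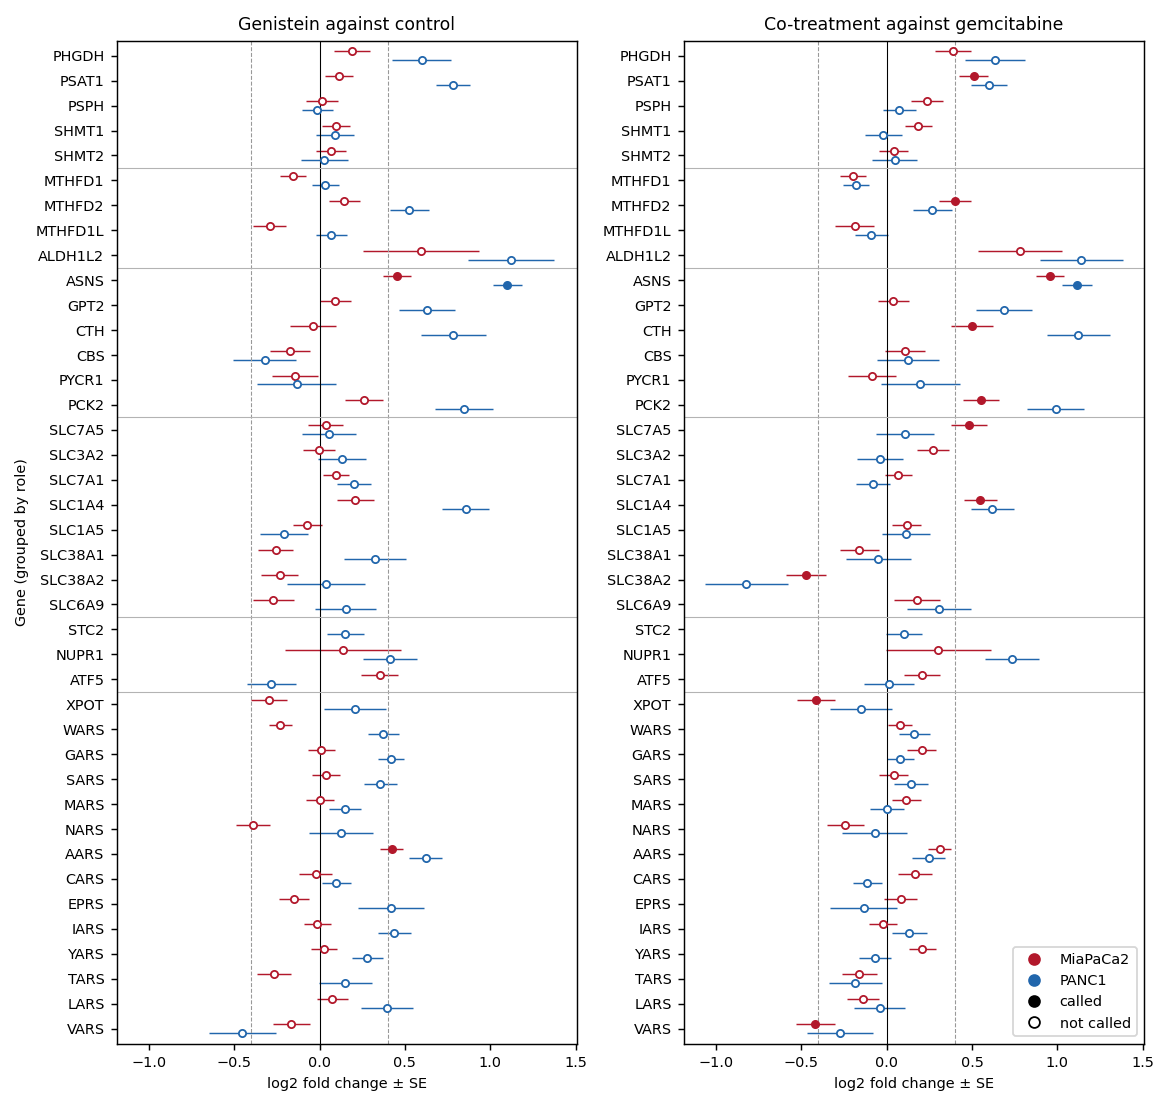
Log2 fold change with SE bars of the 40 genes between genistein and control (left) and between co-treatment and gemcitabine (right), in MiaPaCa2 (red) and PANC1 (blue), with filled points for called genes. ASNS is filled in both lines in both panels, and the tRNA genes at the bottom of the right panel scatter around 0.

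Co-treatment against control joined both patterns. These comparisons share their control libraries with those above. In MiaPaCa2 6 members rose, against 20.3% of all genes, and 16 fell, against 20.2%. In PANC1 8 rose, against 10.2%, and 2 fell, against 6.9%. ASNS, CTH, PCK2 and SLC1A4 were called higher in both lines, and MTHFD1L and SLC38A2 lower in both. The other members that rose were PHGDH and SHMT1 in MiaPaCa2 and PSAT1, ALDH1L2, GPT2 and AARS in PANC1, where the calls of PSAT1 and GPT2 were lost without any one of 7 and 6 of the 8 libraries. ALDH1L2 was not called in MiaPaCa2, where its control mean was 0.27 FPKM. Its reads there were 27 and 25 in the controls and 99 and 90 with both drugs. In log2 CPM the co-treatment libraries stood 1.98 and 1.74 above the control mean. After removal of the GC trend PHGDH, IARS and LARS were no longer called in MiaPaCa2, while MTHFD2 was called higher and SLC7A1, SLC1A5 and CARS lower. In PANC1 PSAT1 was no longer called, while PHGDH and NUPR1 were called higher and SLC7A5 lower. SLC1A4 ended at 19.6 and 21.9 FPKM in MiaPaCa2 (1.19, SE 0.10, adjusted p = 1.73e-06) and at 26.8 and 32.7 in PANC1 (1.24, SE 0.13, adjusted p = 0.00125). CTH rose by 0.65 (SE 0.13) and 1.34 (SE 0.18), PCK2 by 0.79 (SE 0.11) and 0.99 (SE 0.16), and ASNS by 0.74 (SE 0.08) and 1.19 (SE 0.09) in the same order. SLC38A2 fell by 1.56 (SE 0.11) in MiaPaCa2 and by 0.85 (SE 0.24) in PANC1, where it stood at 120.0 and 166 FPKM in the controls and 121 and 73.1 with both drugs, so the groups of PANC1 overlap, and its call there was lost without any one of 6 libraries. The fall of MTHFD1L in PANC1 (-0.52, SE 0.09) was again small in FPKM, from 68.5 and 70.2 to 64.6 and 64.3. Of the tRNA genes, 11 fell in MiaPaCa2, where VARS moved from 126 and 139 to 71.7 and 70.8 FPKM (-0.91, SE 0.11), and in PANC1 AARS alone was called, as higher (0.51, SE 0.10).

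**Figure D5:**
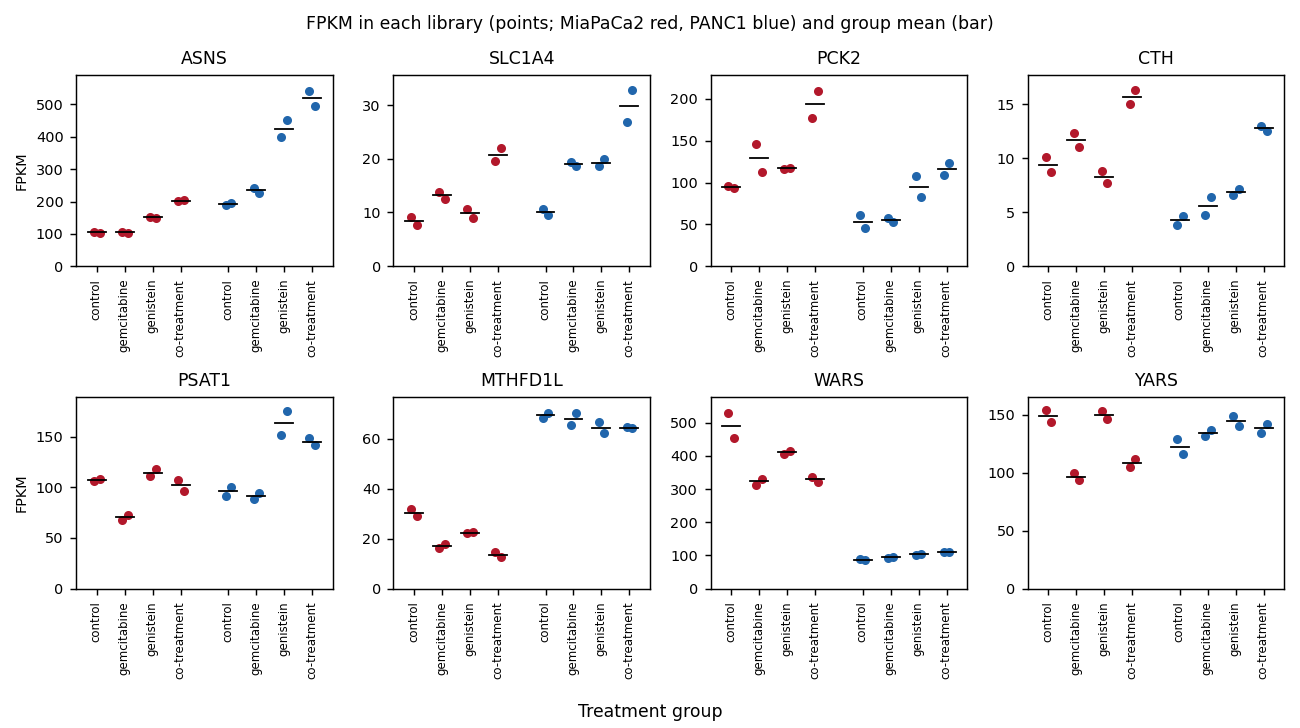
FPKM of 8 members in each library (points, MiaPaCa2 red and PANC1 blue) with group means as bars, by treatment, on axes that start at 0. ASNS, SLC1A4, PCK2 and CTH are highest with co-treatment in both lines, whereas WARS and YARS in MiaPaCa2 are lower with gemcitabine and co-treatment than in the controls.

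Whether the effect of both drugs differs from the sum of each was tested as an interaction. No member passed in MiaPaCa2, against 0.0249% of all genes, by limma-voom, edgeR or DESeq2. An unadjusted p below 0.05 was found for 7 members, all with a positive value, and for 1346 of all 16064 genes in either direction. ASNS had 0.50 (SE 0.12, adjusted p = 0.241), and it and SLC7A5 passed after removal of the GC trend (0.48 and 0.47). In PANC1 no member passed either, against 0.0% of all genes, by the same 3 tools. There 4 members had an unadjusted p below 0.05, SLC38A2, GARS, AARS and YARS, all with a negative value. Over all genes tested, 832 of 16909 had such a p in either direction.

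Related genes outside the 40 were followed in lists of the same pathways. ATF4, the factor named above, fell with gemcitabine in MiaPaCa2 (-0.83, SE 0.09, adjusted p = 2.51e-05) and rose when genistein was added (0.45, SE 0.09, adjusted p = 0.0104), a change that was not called after removal of the GC trend. In PANC1 it rose with genistein (0.85, SE 0.10, adjusted p = 0.0441). Of 10 genes made up of ATF4 and stress genes regulated with it, 4 rose in MiaPaCa2 when genistein was added to gemcitabine and none fell, against the 4.05% and 1.83% of all genes given above. In PANC1 3 rose with genistein, ATF4, DDIT3 (1.10, SE 0.13) and ATF3 (1.52, SE 0.16), against 0.0591% of all genes, and all 10 rose once the GC trend was removed, against 3.9%. Without that correction these 3 were not called with a replicate block (adjusted p of 0.206, 0.206 and 0.168), and no gene at all was called without control II, gemcitabine I, gemcitabine II, genistein I or genistein II. Of 10 further cytosolic charging genes, 5 fell with gemcitabine in MiaPaCa2 (DARS, RARS, FARSB, AIMP1 and EEF1E1), none of which was called after removal of the GC trend. Of 17 mitochondrial tRNA synthetases 3 fell, a share near the 14.6% of all genes that fell, and their median log2 fold change was -0.12, beside -0.60 for the 14 members. Among 20 other genes of amino acid metabolism, of which 19 were tested, 6 rose with gemcitabine in MiaPaCa2 and 2 fell, against 14.9% and 14.6% of all genes. GLDC, of the glycine cleavage system, and GLUL, the glutamine synthetase, had the largest rises (1.27, SE 0.20 and 1.04, SE 0.13).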

How the data were processed

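RNA was measured by poly-A sequencing of 16 libraries of MiaPaCa2 and PANC1. The authors mapped single reads to GRCh37 with TopHat2 2.0.4, removed reads with multiple alignments with Picard 1.29 and deposited whole-number counts per gene from HTSeq 0.6.1, without normalization. They also deposited FPKM per gene from Cufflinks 2.1.1, which divides fragments by the length of the transcript and the size of the library. The annotation release and strand setting are not given in the sources used here. FPKM per isoform was not used.

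Counts were filtered with filterByExpr, scaled by TMM (edgeR 4.0.16) and fitted by limma-voom from limma 3.58.1 under R 4.3.3, with a mean per group in a model of the 8 libraries of a line, or of all 16 for comparisons between lines. Adjusted p-values follow Benjamini and Hochberg and cover every gene tested, 16064 in MiaPaCa2, 16909 in PANC1 and 17863 in the joint model. Tests of an interaction or of a difference between lines were called by the adjusted p alone. The untreated lines were called with a mean FPKM above 1 in either line. The GC correction removed a loess trend (span 0.3) of log2 CPM on exon GC content from each library, with exons from GENCODE v44 lifted to GRCh37, which covered 98.1% and 98.0% of the tested genes of the 2 lines. Coordinates of genes come from the same annotation. The limma-voom and edgeR fits of gemcitabine against control within each line were tested on simulated counts. The GC correction and the model of all 16 libraries were not. Alternatives were edgeR's quasi-likelihood test, DESeq2 1.42.0, other scalings, no filter on low counts, limma-trend on log2(FPKM + 1), other sets of libraries in the model, a replicate block and each replicate left out.

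The members and lists were chosen with earlier results of these data known. All 40 members could be named. Levels in every library are given for members called in both lines and for the 5 members with the largest absolute log2 fold change among those called in each comparison of gemcitabine, genistein and co-treatment with gemcitabine. Other members given with their levels were chosen after their values were seen. Where all libraries of a group are said to lie above or below those of another, the share of all genes that do so was not counted.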

Additional observations from a re-analysis of the deposited data

Results flagged for a closer look

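The response to gemcitabine differed between PANC1 and MiaPaCa2 for 13 of the 40 genes, by the test of the difference itself in the limma-voom model of all 16 libraries. Each value is the log2 fold change in PANC1 minus that in MiaPaCa2. Among tRNA genes it was 0.85 for EPRS, 0.78 for TARS, 0.69 for YARS, 0.65 for XPOT, 0.56 for WARS and 0.51 for GARS. Among carriers it was 0.97 for SLC38A2, 0.88 for SLC38A1, 0.68 for SLC3A2 and 0.41 for SLC7A1. Among enzymes it was 0.66 for MTHFD1L, 0.43 for PSAT1 and 0.32 for MTHFD1. WARS, YARS and GARS kept an adjusted p of at most 0.05 without any one of the 16 libraries, and MTHFD1 and XPOT lost it without any one of 11. PSAT1 and GARS did not pass after removal of the GC trend. With a replicate block MTHFD1, SLC3A2, SLC7A1 and XPOT did not pass, at adjusted p between 0.0506 and 0.0657.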

How the results depend on the processing

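Each count is the number of members called, in both directions together. Calls that moved with the processing were mostly those of PANC1 and of the differences between lines. With all 16 libraries in 1 model, MiaPaCa2 co-treatment against gemcitabine gave 4 in place of 10, and PANC1 gave 5 with gemcitabine (3 in its own model), 10 with genistein (1) and 9 for co-treatment against gemcitabine (1). With only the groups compared, PANC1 gave 0 with gemcitabine, 4 with genistein, 0 for co-treatment against gemcitabine and 3 in place of 10 for co-treatment against control. DESeq2 called 9 and 8 with genistein and for co-treatment against gemcitabine in PANC1 and 3 for the difference in genistein response. The GC correction gave 12 and 10 for those 2 comparisons in PANC1, 24 in place of 13 for the difference in gemcitabine response, 6 in place of 0 for that in genistein response and 2 in place of 0 for the MiaPaCa2 interaction. For MiaPaCa2 co-treatment against gemcitabine, limma-trend on log2(FPKM + 1) gave 1 and no low-count filter gave 6. The adjusted p alone gave 4 in place of 2 for MiaPaCa2 genistein, and library size alone gave 1 for the difference in genistein response. Leaving out 1 library at a time gave 0 to 3 for genistein and 1 to 9 for co-treatment against gemcitabine in MiaPaCa2, 0 to 4 for gemcitabine, 0 to 2 for genistein and 0 to 1 for co-treatment against gemcitabine in PANC1, 3 to 17 for the difference in gemcitabine response and 0 to 1 for that in genistein response. The cause of these moves was not tested, beyond the fewer libraries in some models.

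The GC correction turned the sign of LARS for MiaPaCa2 co-treatment against control (to 0.053), PYCR1 for PANC1 genistein (0.43), CBS, SLC7A5 and SLC1A5 for the difference in gemcitabine response (0.31, 0.24 and 0.37) and PYCR1 and SLC7A5 for that in genistein response (0.53 and 0.39), and gave these same values with the replicate block. Scaling by library size alone moved the median of all genes for PANC1 gemcitabine from 0.03 to 0.14 and for PANC1 co-treatment against control from 0.01 to 0.17, so members there shift by as much.

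Libraries with the same number showed no uniform pairing across groups. Their deviations from the group means correlated at -0.30 to 0.16 in MiaPaCa2 and -0.57 to 0.33 in PANC1. The GC trends of I and II also differed, so these correlations cannot tell whether same-numbered cultures were handled together. With a replicate block, PANC1 gave 0 called members for gemcitabine, genistein and co-treatment against gemcitabine, MiaPaCa2 gave 7 in place of 10 for co-treatment against gemcitabine, and the difference in gemcitabine response gave 9 in place of 13. The GC correction with the block gave 11 for PANC1 genistein, 9 for co-treatment against gemcitabine, 23 for the difference in gemcitabine response and 6 for that in genistein response. Depth left STC2 in MiaPaCa2, at 0 to 3 reads per library, without a test.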
